A study of Homo sapiens with 4 samples.

Results

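The MBNL, CELF, RBFOX and QKI genes encode RNA-binding proteins that decide which cassette exons a cell keeps, and 7 of them were examined here: MBNL1, MBNL2, MBNL3, CELF1, CELF2, RBFOX2 and QKI. Their own alternative exons were followed after loss of SNRPB2, which encodes U2B'', a protein of the small nuclear ribonucleoprotein that recognises the branch point. Members were all skipped-exon events whose skipped exon shares a boundary with an exon of 1 of these genes in GENCODE release 29 (hg38). That gave 50 events on 39 exons, of 38121 exons in 12955 genes over the whole series. The genes were chosen by family with earlier results of these data known. Those results named the read ratio of MBNL2 among the highest of all genes, and any other ψ or read value here may have been seen too. Every difference between the groups is therefore a description without a test.

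The cells were MDA-LM2, which were derived from lung metastases of the human breast cancer line MDA-MB-231. Per the labels, 2 libraries came from siSNRPB2 cells, transfected with small interfering RNAs against SNRPB2 (2 independent ones, knockdown above 95% by quantitative PCR), and 2 from siCtrl cells, transfected with a control. All were taken 48 h after transfection, as total RNA. The sources used here do not say which siRNA each library received. Each deposited file holds 1 value per event for a group, so replicate spread is unknown, and all intervals leave it out. SNRPB2 itself had no assigned event and was not analysed here.

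Reads counted over all events were 93580246 on 42670 events in siSNRPB2 cells and 100579230 on 42159 events in siCtrl cells, and 1 read may count in more than 1 event. The mesenchymal markers AXL, CD44, FN1, SPARC and ZEB1 were at 5.65 to 2386 RPM (reads per 1000000, on the deepest event of a gene) in siSNRPB2 cells and 5.87 to 2729 in siCtrl cells. The epithelial splicing regulator ESRP1 was at 2.03 RPM in siSNRPB2 cells and 0.543 in siCtrl cells, ESRP2 at 22.2 and 26.0, and the keratin KRT8 at 694 and 747. Of the other markers, VIM, MSN, CDH1, EPCAM, GRHL2, KRT18, PECAM1, CD34 and CDH5 had no assigned event and were not analysed here. The blood marker PTPRC was at 0.491 and 2.77 RPM.

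MBNL (muscleblind-like) proteins bind short pyrimidine-GC-pyrimidine elements and promote adult patterns of splicing, and their sequestration by expanded repeats underlies myotonic dystrophy. CELF proteins bind GU-rich RNA and often act on the same exons in the opposite direction. RBFOX proteins bind GCAUG, and QKI binds ACUAA-type elements in introns. Several of these genes regulate their own cassette exons and each other's, which change where in the cell the protein acts or whether it still binds RNA.

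The exons on which the comparisons turn are shown first. MBNL1 and MBNL2 have cassette exons of the same lengths, 54, 36 and 95 nt, and MBNL3 has 1 of 36 nt. The 54-nt exon is known to favour nuclear localisation of MBNL1. The sequences come from GENCODE transcripts and run 5′ to 3′ on the transcribed strand, with capitals where a base differs from a paralogue at the same position.
MBNL1 54 nt, chr3:152446704-152446757 (+): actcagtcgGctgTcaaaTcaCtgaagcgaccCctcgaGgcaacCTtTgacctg
MBNL2 54 nt, chr13:97356796-97356849 (+): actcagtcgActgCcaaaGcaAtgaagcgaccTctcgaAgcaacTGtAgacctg
MBNL1 36 nt, chr3:152455542-152455577 (+): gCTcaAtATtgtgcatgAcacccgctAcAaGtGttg
MBNL2 36 nt, chr13:97365136-97365171 (+): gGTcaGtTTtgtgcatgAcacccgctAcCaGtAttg
MBNL3 36 nt, chrX:132384663-132384698 (-): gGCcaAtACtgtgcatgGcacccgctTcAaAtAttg
MBNL1 95 nt, chr3:152456267-152456361 (+): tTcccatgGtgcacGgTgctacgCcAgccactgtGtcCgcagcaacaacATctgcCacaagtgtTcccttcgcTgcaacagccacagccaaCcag
MBNL2 95 nt, chr13:97366459-97366553 (+): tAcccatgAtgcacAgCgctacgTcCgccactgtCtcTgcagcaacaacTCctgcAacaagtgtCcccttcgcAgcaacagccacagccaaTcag

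MBNL1 and MBNL2 shared 45 of 54 bases in the first of these exons, 31 of 36 in the second and 81 of 95 in the third. MBNL3 shared 29 of 36 bases with MBNL1 and 28 of 36 with MBNL2. All 3 of the 36-nt exons held GCATG, the core RBFOX element, starting at base 13, on the transcribed strand (searched on both strands, GCATG and CATGC, which overlap only in GCATGC). Among 52 tested exons of 36 nt with annotated boundaries, 2 (3.85%) held it on either strand and 1 of them was the MBNL1 exon. A match describes these letters only. All of the 36-nt and 54-nt exons keep the reading frame by length, and the 95-nt exons do not.

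The called RBFOX2 exon and both called CELF2 exons are shown as well, with the RBFOX2 exon that can take the place of the first. The 40-nt and 43-nt exons of RBFOX2 correspond to alternative exons that differ between brain and muscle in RBFOX genes. Capitals mark the first and last 3 bases, next to the splice sites.
RBFOX2 40 nt, chr22:35756105-35756144 (-): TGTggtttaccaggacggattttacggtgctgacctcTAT
RBFOX2 43 nt, chr22:35752613-35752655 (-): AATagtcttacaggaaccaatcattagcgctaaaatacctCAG
CELF2 83 nt, chr10:11217425-11217507 (+): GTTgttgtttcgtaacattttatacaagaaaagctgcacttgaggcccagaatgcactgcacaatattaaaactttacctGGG
CELF2 144 nt, chr10:11325836-11325979 (+): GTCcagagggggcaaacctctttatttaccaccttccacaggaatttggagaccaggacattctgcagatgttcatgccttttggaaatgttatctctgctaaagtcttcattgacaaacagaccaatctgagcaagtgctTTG

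Inclusion is given as ψ, as the authors estimated it with MISO, with its interval in brackets. It is the fraction with the exon among the isoforms of 1 event, with and without the exon between the same neighbours, so events of 1 exon with different neighbours can differ in ψ. Reads that fit only the isoform with the exon (inclusion-only) or only the isoform without it (exclusion-only) are informative, and an exon was tested with at least 20 of them in each file. Calls needed a ψ difference of 0.1 or more together with a Bayes factor, in the authors' deposited table, of 10 or more. Of the 39 member exons, 27 were tested, and 4 of these were called, 3 lower and 1 higher in siSNRPB2 cells. Over all 18682 tested exons 14.7% were called, 7.61% lower and 7.13% higher, so 4 of 27 (14.8%) is near the background. The lower ones were RBFOX2 40 nt, CELF2 83 nt and CELF2 144 nt, and the higher one was MBNL1 36 nt. Differences over the 27 exons ran from -0.31 to 0.25 with a median of 0, the same as the median of all tested exons, and 17 were within 0.05 of 0.

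**Figure D1:**
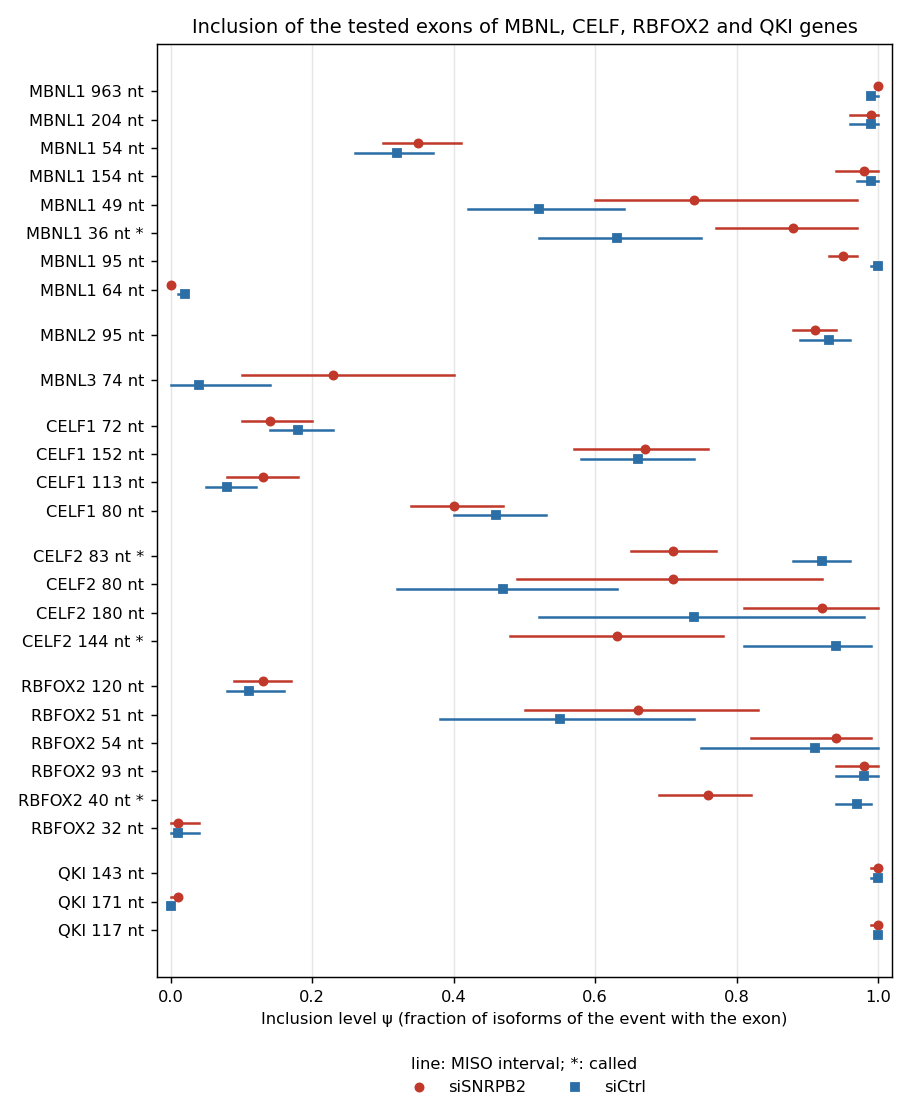
Inclusion level ψ (horizontal axis, a fraction) of the 27 tested exons, named by gene and length in nt and ordered 5′ to 3′ within each gene; points are ψ in siSNRPB2 cells (circles) and siCtrl cells (squares), lines are the MISO intervals, and asterisks mark called exons. The called exons of RBFOX2 (40 nt) and CELF2 (83 nt and 144 nt) lie to the left in siSNRPB2 cells, and the called MBNL1 exon (36 nt) lies to the right.

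The members' exons were also described by features that the choice of genes did not use. Their median length was 93 nt, against 121 nt over all tested exons. A length divisible by 3 was found in 13 of 27 (48.1%), against 41.8% of all tested exons. The introns beside them were long, with medians of 4449 nt upstream and 7768 nt downstream, against 2189.5 and 2038 nt over all tested exons. Both boundaries were annotated in 26 of 27, and 20 lay wholly in coding sequence of a transcript. In 11 of 27 no exclusion-only read was seen in either file, against 51.1% of all tested exons. For these exons ψ rests on the number of reads on the exon relative to the flanking exons.

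MBNL1 had 8 tested exons, and its 36-nt exon was called higher. In the event with the nearest neighbouring exons its ψ was 0.88 (0.77 to 0.97) in siSNRPB2 cells and 0.63 (0.52 to 0.75) in siCtrl cells. The Bayes factor in the authors' deposited table was 47.65. The exon had 150 inclusion-only reads and 1 exclusion-only read in siSNRPB2 cells, against 143 and 0 in siCtrl cells, while reads that fit both isoforms numbered 842 and 1254. The share of inclusion-only among informative reads was 0.993 in siSNRPB2 cells and 1 in siCtrl cells. The skipping junction thus shows no difference like that in ψ, and the reads that differ are those that fit both isoforms, most of them on the flanking exons.

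The same MBNL1 exon was measured in a pair of other events, which differ in the neighbours they assume. With the same upstream exon and the next but 1 exon downstream, ψ was 0.98 (0.92 to 1) in siSNRPB2 cells and 0.68 (0.53 to 0.84) in siCtrl cells. That event had 135 and 93 inclusion-only reads and no exclusion-only read in either file. Reads that join the 36-nt exon to the exon after the 95-nt exon, 16 in siSNRPB2 cells and 0 in siCtrl cells, count for inclusion there. With an upstream exon that leaves out the 154-nt exon in between, it was 0.2 (0.14 to 0.29) and 0.27 (0.2 to 0.35), the opposite direction with overlapping intervals. This event had 31 inclusion-only reads in siSNRPB2 cells and 50 in siCtrl cells, and no exclusion-only read in either file.

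The 36-nt exons of the other MBNL genes had too few informative reads to be tested. In MBNL2, the event with the exon after the 95-nt exon as its downstream neighbour gave ψ 0.33 (0.2 to 0.48) in siSNRPB2 cells and 0.06 (0.01 to 0.18) in siCtrl cells. Informative reads were 19 with the exon and 20 without it in siSNRPB2 cells, against 0 and 13 in siCtrl cells. The authors' deposited table gave a Bayes factor of 13.27. With the 95-nt exon as its downstream neighbour, ψ was 0.02 in both files, on 0 inclusion-only reads in each. In MBNL3 ψ was 0.31 (0.11 to 0.63) in siSNRPB2 cells and 0.05 (0.01 to 0.18) in siCtrl cells, on 5 and 0 informative reads. The direction depended on the event in MBNL1 and rested on few reads in MBNL2 and MBNL3.

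**Figure D2:**
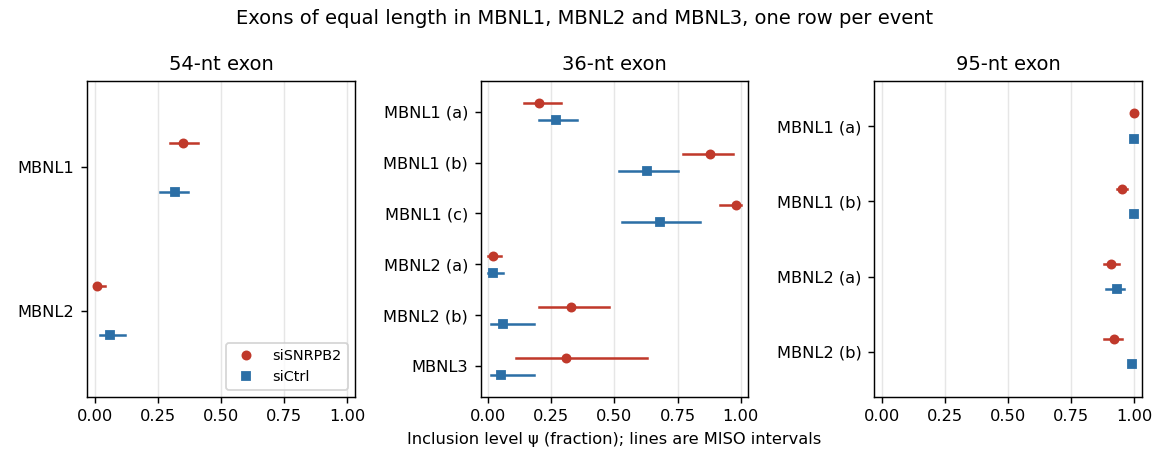
Inclusion level ψ (horizontal axes, a fraction) of the 54-nt, 36-nt and 95-nt exons of MBNL1, MBNL2 and MBNL3, with 1 row for each event and letters where an exon has several; points are siSNRPB2 cells (circles) and siCtrl cells (squares), lines the MISO intervals. For the 36-nt exon the MBNL1 rows b and c, the MBNL2 row b and the MBNL3 row lie higher in siSNRPB2 cells, and the MBNL1 row a lies at 0.2 against 0.27.

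The 95-nt exon had a ψ of at least 0.91 in every MBNL1 and MBNL2 event, and in both genes reads of the same skipping junction were seen in siSNRPB2 cells alone. In MBNL1, where its upstream neighbour is the 36-nt exon, ψ was 0.95 (0.93 to 0.97) in siSNRPB2 cells and 1 (0.99 to 1) in siCtrl cells. Reads that joined the 36-nt exon straight to the exon after the 95-nt exon numbered 16 in siSNRPB2 cells and 0 in siCtrl cells. In MBNL2 the same arrangement gave ψ 0.92 (0.88 to 0.95) in siSNRPB2 cells and 0.99 (0.98 to 1) in siCtrl cells, with 19 and 0 such reads. The Bayes factors in the authors' deposited table were 265.18 for MBNL1 and 2345.5 for MBNL2, but neither difference reached 0.1. Those 19 MBNL2 reads cross the same junction as the 19 inclusion-only reads of its 36-nt exon above, so the same reads enter both values. No counted read joined the MBNL2 36-nt exon to its 95-nt exon in either file, since the event of these neighbours had 0 inclusion-only reads.

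MBNL2 skipping junctions differed in other ways as well. Reads from the exon before the 36-nt exon straight to the 95-nt exon numbered 2 in siSNRPB2 cells and 36 in siCtrl cells. Reads that passed over both exons numbered 20 and 13. Of the reads of these kinds together, 9.09% (exact 95% interval 1.12 to 29.2) entered the 95-nt exon in siSNRPB2 cells, against 73.5% (58.9 to 85.1) in siCtrl cells, on 22 and 49 reads. By ψ, with all reads of the exon, the same event differed little, at 0.91 (0.88 to 0.94) and 0.93 (0.89 to 0.96), on 301 and 229 inclusion-only reads. The reads carry no molecular identifiers that the sources mention, so copies of 1 molecule can count several times, and exact intervals cover counting error only.

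The 54-nt exon of MBNL1 had close values of ψ in both groups, 0.35 (0.3 to 0.41) in siSNRPB2 cells and 0.32 (0.26 to 0.37) in siCtrl cells. By reads the order was turned. Reads with the exon and without it were 133 and 110 in siSNRPB2 cells, against 108 and 59 in siCtrl cells. The share of inclusion-only reads was 0.547 (exact 95% interval 0.482 to 0.611) and 0.647 (0.569 to 0.719), and these intervals overlap. In MBNL2 the exon was mostly left out, at ψ 0.01 (0 to 0.04) and 0.06 (0.02 to 0.12), on 4 informative reads in siSNRPB2 cells and 14 in siCtrl cells.

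No other MBNL exon was called. The 963-nt exon of MBNL1, which holds a translation start and is a known target of MBNL proteins themselves, was at ψ 1 in siSNRPB2 cells and 0.99 in siCtrl cells, with 2 and 14 reads that skip it. The 204-nt exon was at 0.99 in both. The 154-nt exon was at 0.98 in siSNRPB2 cells and 0.99 in siCtrl cells with the 36-nt exon as its downstream neighbour, but at 0.74 (0.67 to 0.82) and 0.89 (0.82 to 0.95) with the 95-nt exon there. Neither event of the 154-nt exon had an exclusion-only read in either file. The Bayes factor of the event with the 95-nt exon was 9.61 in the authors' deposited table, just under the bound. A 49-nt form of the 154-nt exon that starts further downstream was at 0.74 (0.6 to 0.97) and 0.52 (0.42 to 0.64), with no exclusion-only read. With the 95-nt exon as its downstream neighbour this form was at 0.01 (0 to 0.03) and 0.04 (0.02 to 0.07), the opposite direction. The 64-nt exon was almost always left out, with 0 inclusion-only reads against 435 exclusion-only in siSNRPB2 cells, and 16 against 490 in siCtrl cells. It overlaps the gene AC026347.1 on the opposite strand. The 74-nt exon of MBNL3 was at 0.23 (0.1 to 0.4) and 0.04 (0 to 0.14), on 7 and 0 inclusion-only reads, and was not called. It and the 36-nt exon of MBNL3 overlap RAP2C-AS1 on the opposite strand, and the sources used here do not say whether reads were counted by strand.

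RBFOX2, a regulator of mesenchymal and muscle splicing, had 6 tested exons, and its 40-nt exon was called lower. Its ψ was 0.76 (0.69 to 0.82) in siSNRPB2 cells and 0.97 (0.94 to 0.99) in siCtrl cells. Reads with the exon numbered 153 and reads without it 35 in siSNRPB2 cells, against 177 and 3 in siCtrl cells. Its Bayes factor was 1e+12, a ceiling that 1929 events reach in the authors' deposited table. Here the junction reads moved with ψ. The share of inclusion-only reads was 0.814 (exact 95% interval 0.751 to 0.867) in siSNRPB2 cells and 0.983 (0.952 to 0.997) in siCtrl cells.

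A narrower count of the same choice used only part of the reads above, so it is not independent of them. It took the event of the 32-nt exon downstream, whose exclusion-only reads join the 40-nt exon to the next exon. They numbered 68 in siSNRPB2 cells and 70 in siCtrl cells. Of these and the reads that skip the 40-nt exon, 66.0% (exact 95% interval 56.0 to 75.1) in siSNRPB2 cells and 95.9% (88.5 to 99.1) in siCtrl cells used the exon. The alternative 43-nt exon had 0 inclusion-only reads in both files, and its ψ was 0.02 (0 to 0.07) and 0.05 (0.01 to 0.16). The reads that left out the 40-nt exon therefore left out the 43-nt exon too. Both lengths leave the same remainder of 1 when divided by 3, so leaving out both shifts the reading frame relative to keeping either.

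The other RBFOX2 exons were close in both groups. The 93-nt exon encodes part of the RNA recognition motif, and its skipping is known to give a protein that does not bind RNA. Its ψ was 0.98 (0.94 to 1) in each group, with 1 skipping read in siSNRPB2 cells and 0 in siCtrl cells. The exon before it was measured with a pair of 3′ splice sites 3 bases apart, and ψ was 0.94 and 0.91 for the 54-nt form and 0.66 and 0.55 for the 51-nt form, with overlapping intervals. Each form was set against skipping, not against the other form, and no exclusion-only read was seen in either file. The 51-nt form has only 1 annotated boundary and is in no annotated transcript. The 32-nt exon was at 0.01 in both, with 68 and 70 reads that skip it. The 120-nt exon, outside coding sequence, was at 0.13 and 0.11, with 27 skipping reads in each file.

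CELF2 had 4 tested exons, and 2 of them were called lower. The 83-nt exon, coding and present in 15 of the 17 annotated transcripts of the gene, had a ψ of 0.71 (0.65 to 0.77) in siSNRPB2 cells and 0.92 (0.88 to 0.96) in siCtrl cells. Reads with the exon numbered 293 and reads without it 46 in siSNRPB2 cells, against 419 and 11 in siCtrl cells. The share of inclusion-only reads was 0.864 (exact 95% interval 0.823 to 0.899) and 0.974 (0.955 to 0.987). The Bayes factor in the authors' deposited table was 1e+12. This exon length is not divisible by 3.

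The 144-nt exon of CELF2 lies at the start of the third RNA recognition motif. Its ψ was 0.63 (0.48 to 0.78) in siSNRPB2 cells and 0.94 (0.81 to 0.99) in siCtrl cells, and the authors' deposited table gave a Bayes factor of 24.93. No read crossed its skipping junction in either file. The exon had 69 inclusion-only reads in siSNRPB2 cells and 88 in siCtrl cells, and reads that fit both isoforms, most of them on its neighbours, numbered 250 and 150. The 80-nt and 180-nt exons lay the other way, at 0.71 (0.49 to 0.92) and 0.47 (0.32 to 0.63), and at 0.92 (0.81 to 1) and 0.74 (0.52 to 0.98), also with no exclusion-only read and not called. Of the 4 tested CELF2 exons only the 83-nt exon had reads across the skipping junction.

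CELF1, a regulator of splicing and mRNA decay, had 4 tested exons and none was called. The 80-nt coding exon was at ψ 0.4 (0.34 to 0.47) in siSNRPB2 cells and 0.46 (0.4 to 0.53) in siCtrl cells. It had 190 inclusion-only reads in siSNRPB2 cells and 224 in siCtrl cells. No exclusion-only read was seen for it in either file, so its ψ rests on read numbers relative to the flanking exons. The remaining 3 lie upstream of it and are not wholly coding: 152 nt at 0.67 and 0.66, 72 nt at 0.14 and 0.18, and 113 nt at 0.13 (0.08 to 0.18) and 0.08 (0.05 to 0.12). A second event of the 72-nt exon, with the 40-nt exon as its upstream neighbour and no exclusion-only read, gave 0.34 (0.24 to 0.47) in siSNRPB2 cells and 0.58 (0.44 to 0.73) in siCtrl cells. For the 113-nt exon the reads gave a larger gap than ψ, with 25 reads that keep it and 23 that skip it in siSNRPB2 cells against 17 and 45 in siCtrl cells. The share of inclusion-only reads was 0.521 (exact 95% interval 0.372 to 0.667) and 0.274 (0.169 to 0.402), with intervals that overlap.

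QKI, a STAR-family protein that also acts on myelin transcripts and circular RNAs, showed no called exon among 3. The 143-nt and 117-nt coding exons were at ψ 1 in both groups, with no skipping read on 813 and 1617 inclusion-only reads in siSNRPB2 cells and 1389 and 2568 in siCtrl cells. The 171-nt exon is annotated in 1 transcript, which is marked for nonsense-mediated decay. It had 8 inclusion-only reads in siSNRPB2 cells and 0 in siCtrl cells, beside 116 and 112 exclusion-only reads. The carboxy-terminal variants of QKI differ at the 3′ end of the gene and are not skipped-exon events.

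**Figure D3:**
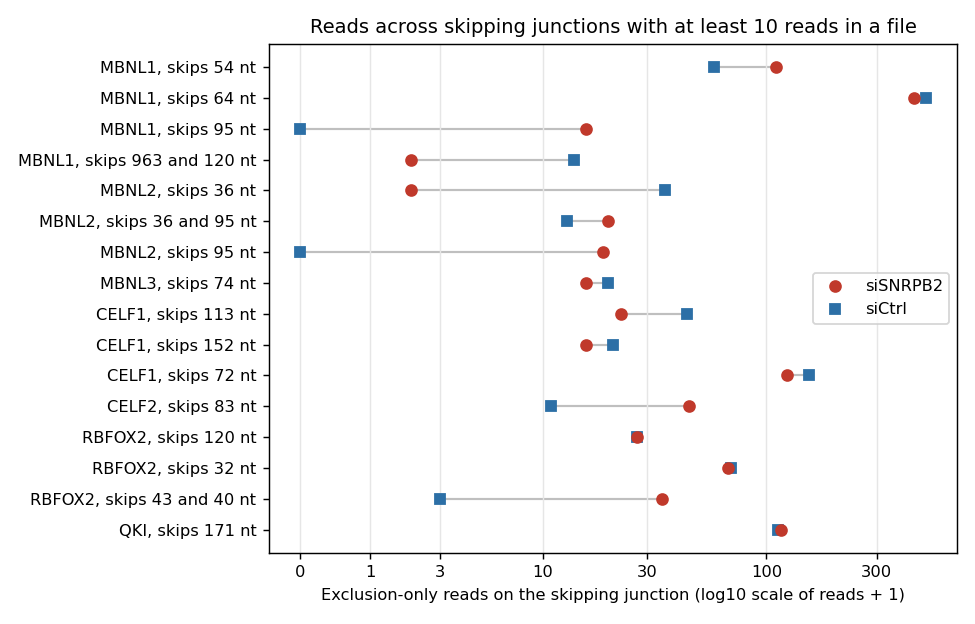
Exclusion-only reads (horizontal axis, log10 scale of reads + 1) on each skipping junction of the 7 genes with at least 10 such reads in a file, named by the exons the junction passes over; circles are siSNRPB2 cells and squares siCtrl cells. Skipping reads of RBFOX2 40 nt (35 and 3), CELF2 83 nt (46 and 11) and the 95-nt exons of MBNL1 (16 and 0) and MBNL2 (19 and 0) are higher in siSNRPB2 cells, and those into the MBNL2 95-nt exon (2 and 36) are lower.

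The 12 exons that were not tested had too few informative reads. They were MBNL1 120 nt and 58 nt, MBNL2 54 nt and 36 nt, MBNL3 36 nt and 138 nt, CELF1 105 nt, 40 nt and 119 nt, CELF2 94 nt and 42 nt, and RBFOX2 43 nt. The 138-nt exon of MBNL3 had 0 reads of either informative kind in siSNRPB2 cells, against 12 that keep it and 9 that skip it in siCtrl cells. The 94-nt exon of CELF2 was listed in the siSNRPB2 file only, with 3 reads that fit either isoform. For the CELF1 exons ψ was 0.13 and 0.14 (105 nt), 0.19 and 0.16 (40 nt) and 0.09 and 0.03 (119 nt), with overlapping intervals.

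Reads on the events gave a proxy of gene level, taken from the event of each gene with the most reads that fit either isoform and scaled to the file total over 1 event per gene (RPM). In bulk RNA, less RNA per cell and fewer cells that carry it cannot be told apart. MBNL2 had 2594 reads in siSNRPB2 cells and 1374 in siCtrl cells, or 159 and 74.6 RPM. The log2 ratio was 1.09 (exact 95% counting interval 1.00 to 1.19), 2.13-fold, and it was the only member past 1.5-fold. Past 1.5-fold were 14.3% of 10429 genes with at least 20 reads on average in the higher direction and 11.7% in the lower. Among the 3405 genes with at least 1000 reads the shares were 1.82% and 1.44%, and MBNL2 ranked 5 from the top. All 5 MBNL2 events lay above 0, from 0.67 to 1.19. On the deepest event the log2 ratio was 0.95 with reads that fit neither isoform added, and 0.60 with informative reads only, near the 1.5-fold bound.

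QKI lay in the other direction. It had 2818 reads in siSNRPB2 cells and 4759 in siCtrl cells, or 173 and 259 RPM. The log2 ratio was -0.58 (-0.65 to -0.51), 0.669-fold, just short of the 1.5-fold bound. It ranked 51 from the bottom among the 3405 genes with at least 1000 reads. All 3 QKI events lay below 0, from -0.58 to -0.44. With the median log2 ratio of all genes set to 0, QKI was at -0.59 and past the bound. With reads that fit neither isoform added it was at -0.46, and such reads made up 35.3% of the event in siSNRPB2 cells and 26.9% in siCtrl cells. Their part in the result was not tested.

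**Figure D4:**
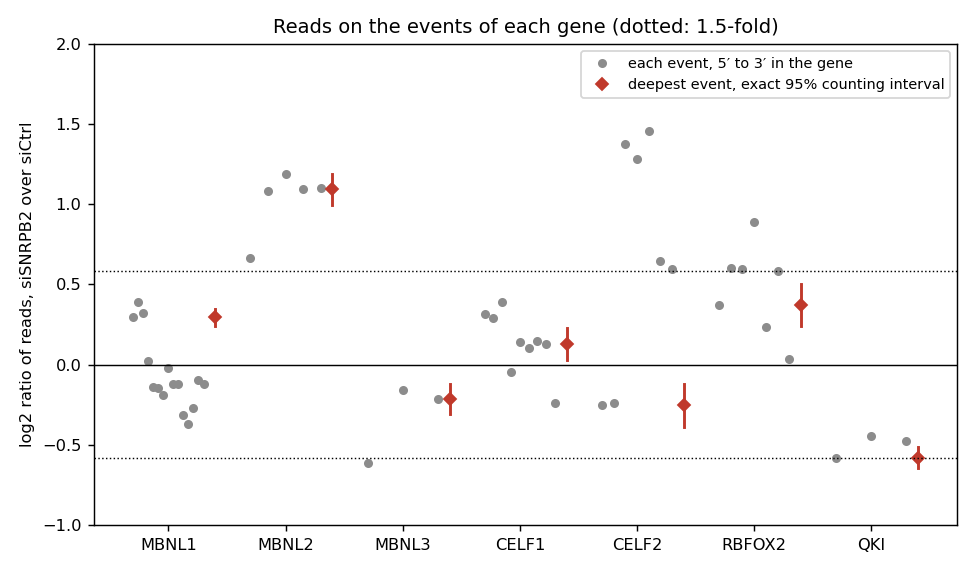
Log2 ratio of reads, siSNRPB2 over siCtrl (vertical axis), for each event of the 7 genes (grey, ordered 5′ to 3′ within a gene) and for the deepest event of each gene (diamonds, with the exact 95% counting interval); dotted lines mark 1.5-fold. The MBNL2 events lie at 0.67 to 1.19 and the QKI events at -0.58 to -0.44, while the events of MBNL1, CELF1 and CELF2 lie on both sides of 0.

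The remaining 5 genes lay within 1.5-fold. RBFOX2 had 1047 reads in siSNRPB2 cells and 915 in siCtrl cells (log2 ratio 0.37, interval 0.24 to 0.50), and its 7 events lay above 0, from 0.04 to 0.89. Its deepest event covers a wide intron, and with all reads of that event, those that fit neither isoform included, its ratio was -0.15. MBNL3 had 1635 and 2145 reads (-0.22, -0.31 to -0.12), and its 3 events lay below 0. CELF1 had 1675 and 1731 reads (0.13, 0.03 to 0.23), with 7 of 9 events above 0. With informative reads only both directions turned, to 0.38 for MBNL3 and -0.05 for CELF1. These ratios rest on few reads, 23 in siSNRPB2 cells and 20 in siCtrl cells for MBNL3, and 190 and 224 for CELF1.

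In MBNL1 and CELF2 the direction depended on the part of the gene. The deepest MBNL1 event, at its 5′ end, had 6460 reads in siSNRPB2 cells and 5949 in siCtrl cells, a log2 ratio of 0.29 (0.24 to 0.35). The 3 events at that end lay at 0.29, 0.39 and 0.32. The 11 events from the 54-nt exon onward lay below 0, from -0.37 to -0.02, and the sum over all events was at -0.01. CELF2 had 768 and 1035 reads on its deepest event (-0.25, -0.39 to -0.12), and the event of its 80-nt exon was at -0.24. Its 5 events further downstream lay above 0, from 0.60 to 1.46, and the sum over all events was at 0.20. With reads that fit neither isoform added, the deepest event was at 0.01, and these reads made up 79.4% of it in siSNRPB2 cells and 74.2% in siCtrl cells. The 3 highest of these share the 42-nt exon and rest on 132 to 140 reads in siSNRPB2 cells and 57 to 63 in siCtrl cells.

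**Figure D5:**
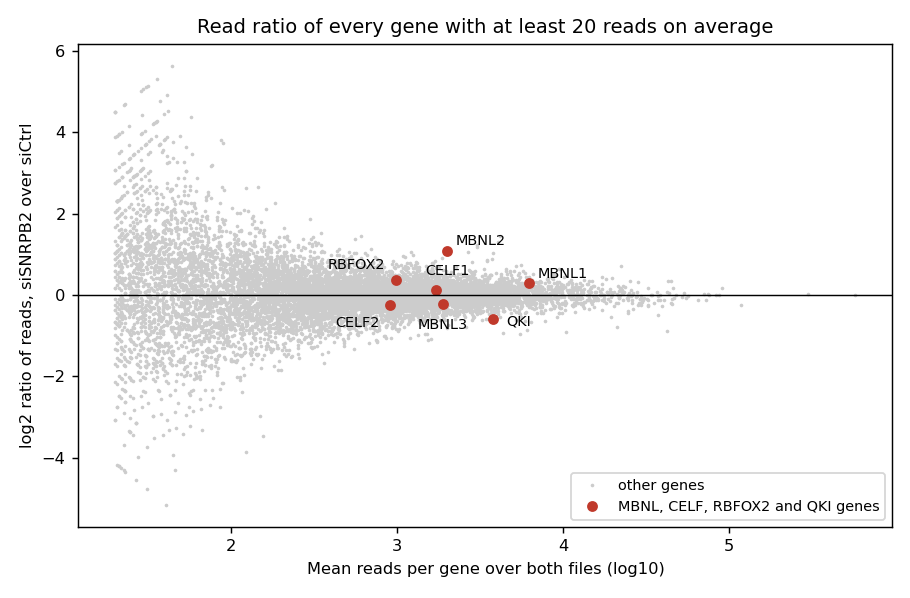
Log2 ratio of reads, siSNRPB2 over siCtrl (vertical axis), against mean reads over both files (horizontal axis, log10) for the 10429 genes with at least 20 reads on average; the 7 named genes are in red and each other gene is a grey point. MBNL2 lies at 1.09 near the upper edge of genes of its depth, and QKI at -0.58 near the lower edge.

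Per kb of event exons, the level in RPM was 273 for CELF1, 225 for MBNL1, 181 for QKI, 143 for CELF2, 103 for RBFOX2, 52.2 for MBNL2 and 9.53 for MBNL3 in siSNRPB2 cells. In siCtrl cells it was 271 for QKI, 249 for CELF1, 184 for MBNL1, 171 for CELF2, 79.7 for RBFOX2, 24.5 for MBNL2 and 11.1 for MBNL3. QKI was thus the highest of the 7 in siCtrl cells and the third in siSNRPB2 cells, and MBNL2 and MBNL3 were the lowest in both. The MBNL3 event holds a long last exon (10.5 kb of exons in all), over which reads may be spread unevenly, and the order rests on 1 event per gene.

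Other splicing regulators were counted from a list chosen with earlier results known. In 43 of its 60 genes 146 exons were tested, of which 10 were called lower and 8 higher (12.3%, against 14.7% of all tested exons). Lower were exons of HNRNPC, an hnRNP that guards against inclusion of Alu exons (26 nt, ψ 0.24 in siSNRPB2 cells and 0.4 in siCtrl cells), of ZC3H14, a poly(A)-binding protein (75 nt, 0.58 and 0.97), and of SRSF10, an SR-like splicing factor (54 nt, 0.72 and 0.96). Higher were exons of HNRNPH1 (138 nt, 0.36 and 0.09), which binds G-rich runs, and of SUGP2 (113 nt, 0.78 and 0.45). Larger differences were seen in PTBP2 (34 nt, higher, 0.97 and 0.15) and PCBP4. PCBP4 had a 148-nt exon called higher (0.81 and 0.2) and a 129-nt exon called lower (0.33 and 0.95). All of these exons had exclusion-only reads in at least 1 file. For ZC3H14 these were 1 in siSNRPB2 cells and 0 in siCtrl cells, beside 120 and 351 inclusion-only reads. Its skipping junction thus shows no difference like that in ψ.

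Genes with exons known to respond to the 4 families were counted in the same way, over all their tested exons rather than the known exon alone. For MBNL 8 exons were called lower and 11 higher of 107 (17.8%), for RBFOX2 11 and 19 of 126 (23.8%), for QKI 4 and 6 of 56 (17.9%) and for CELF 1 and 2 of 45 (6.67%), against 14.7% of all tested exons. The lists overlap, the MBNL list holds MBNL1 itself, and no test was made of these shares. With at least 1 exclusion-only read asked for, 19 of the 30 RBFOX2-list calls and 14 of the 19 MBNL-list calls were left. The share of all tested exons called under this filter was not computed, so these 2 counts have no background and 14.7% does not apply to them. The median ψ difference was 0 in each list, as over all tested exons.

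Among MBNL-list genes, exons of KIF13A, a kinesin, were lower (105 nt, ψ 0.16 in siSNRPB2 cells and 0.34 in siCtrl cells) and of ITGA6, an integrin chain, higher (130 nt, 0.52 and 0.32). The ITGA6 exon had 645 reads that keep it and 51 that skip it in siSNRPB2 cells, against 404 and 64 in siCtrl cells. Among RBFOX2-list genes, an exon of CTNND1, the p120 catenin, was higher (119 nt, 0.94 and 0.39), with 0 skipping reads in siSNRPB2 cells and 21 in siCtrl cells. An exon of PICALM, a clathrin adaptor, was lower (24 nt, 0.16 and 0.88), with 47 skipping reads in siSNRPB2 cells and 4 in siCtrl cells. Exons of TSC2 (167 nt, 0.46 and 0.72) and MPRIP (160 nt, 0.55 and 0.78) were lower too, with no skipping read in either file. Among QKI-list genes, the 24-nt exon of CLASP1, a microtubule plus-end protein, was lower (0.01 and 0.14, with 0 and 34 inclusion-only reads). Directions were thus mixed within each list.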

How the data were processed

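Total RNA of 4 libraries was made with a stranded kit, per the labels' protocols. Per the submitters' processing notes, STAR 2.7 and hg38 were used. The authors deposited ψ as a fraction with its interval, and read numbers per class, from MISO, per the file headers. Their comparison table gives the ψ difference, a score between -1 and 1, and the Bayes factor, a ratio of evidence, per the file headers. The sources used here give neither MISO's version, event annotation and interval level nor whether libraries were merged.

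Events were matched to GENCODE release 29 by exon boundaries on the same strand, and 97.9% had a gene. For each exon the event with the most informative reads was kept, where both files had 20 or more. Calls needed a Bayes factor of 10 or more and a difference of 0.1 or more. Read ratios used a pseudocount of 1. Exact intervals are Clopper-Pearson (95%) and cover counting error only. Informative reads per tested exon had a median of 137 in siSNRPB2 and 158 in siCtrl.

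The members and lists were chosen with earlier results of these data known. Every tested member exon is named, and list genes are named from up to 4 called exons per list and direction where both files had 50 or more informative reads. Not every such list exon is given. The alternatives tried concern the call thresholds, the minimum of informative reads, shares of reads in place of ψ, the event used and the scaling of reads. The read ratio was tested on simulated data. The work used scipy 1.17.1, pandas 2.3.3 and numpy 2.4.6 under Python 3.11.15.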

Additional observations from a re-analysis of the deposited data

Results flagged for a closer look

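Reads that fit neither isoform, such as reads in introns or on other exons within the event, entered none of the comparisons of ψ. These kinds were not told apart. On the deepest event of CELF2 they made up 79.4% of reads in siSNRPB2 cells (exact 95% interval 78.1 to 80.7) and 74.2% in siCtrl cells (72.9 to 75.6). On that of QKI they made up 35.3% (33.8 to 36.7) in siSNRPB2 cells and 26.9% (25.8 to 28.0) in siCtrl cells. In both genes the share was above that of the control file, with intervals that do not overlap and that cover counting error only. For RBFOX2 the share was lower, at 95.6% (95.3 to 95.8) in siSNRPB2 cells and 96.8% (96.6 to 97.0) in siCtrl cells. The intervals of the MBNL genes and CELF1 overlapped between the groups.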

How the results depend on the processing

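No paired analysis was possible because the files hold 1 value per group, and for the same reason no replicate could be left out. The count of 3 lower and 1 higher member exons stayed within 1.5 times under most other settings tried. Within that bound, 2 were called lower with an exclusion-only read asked for, and 2 with the share of inclusion-only reads in place of ψ. A ψ difference of at least 0.05 gave 4 lower. The MBNL1 36-nt exon stayed called on 1 exclusion-only read where such a read was asked for. The exceptions beyond 1.5 times follow. With 10 informative reads as the minimum 2 exons were called higher, and with the share of inclusion-only reads in place of ψ 0 were, since the MBNL1 36-nt exon then differed by -0.0066. With a ψ difference of at least 0.2, calls in the lists fell to 11 (other regulators), 10 (MBNL), 19 (RBFOX2), 2 (QKI) and 1 (CELF). Asking for an exclusion-only read left 19 (RBFOX2) and 1 (CELF). The shares of all tested exons called under these settings were not computed, so the falls in the lists have no background. Setting the median log2 ratio of all genes to 0 put 1 member, QKI, past 1.5-fold lower, against 0. With informative reads only, the read ratios of MBNL3 and CELF1 turned direction (0.38 and -0.05) and that of MBNL2 was 0.60. The MBNL3 value rests on 23 informative reads in siSNRPB2 cells and 20 in siCtrl cells. Counting an exon where any of its events passes was chosen after seeing the data and gave the same counts, 3 and 1. With the share of inclusion-only reads, the called CELF2 144-nt exon differed by 0, since it has no exclusion-only read. Low informative reads limit the 12 exons that were not tested.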

Other observations

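Among other splicing regulators, 47 had at least 20 reads on average. Past 1.5-fold higher in siSNRPB2 cells were 5 (CELF4, ESRP1, NOVA1, PTBP2 and RBM38) and lower were 2 (RBMS1 and RBM47), named after their values were seen. Over all 10429 genes 14.3% were past the bound higher and 11.7% lower, larger shares than in this list. Among the 3405 genes with at least 1000 reads on average the shares were 1.82% and 1.44%, smaller than in this list. The list holds genes of both depths and was not matched in depth, so neither order was tested. RBM38, a p53 target that binds RNA, had 115 RPM in siSNRPB2 cells and 73.9 in siCtrl cells. RBMS1 had 40.1 RPM in siSNRPB2 cells and 73.7 in siCtrl cells, and RBM47 14.4 and 24.8. CELF4, ESRP1 and NOVA1 had at most 4.91 RPM in either group.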
